A study of Rattus norvegicus with 2 samples.

Results

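Kallikreins are secreted serine proteases whose genes lie side by side in the genome, and Spink5 and Cst6 encode protease inhibitors of the epidermis. The set comprised 10 listed genes: the kallikrein genes Klk5, Klk6, Klk7, Klk8, Klk10, Klk11, Klk13 and Klk14, and the inhibitor genes Spink5 and Cst6. They were taken by symbol from the probe annotation, which gave a named probe set, 1 each, for 8 of the 10 and for 15037 genes in all. Klk5 and Klk14 had no named probe set and were not analysed here. Of the 8, 6 lay above a background floor on both arrays (Klk6, Klk7, Klk8, Klk10, Spink5 and Cst6), and Klk11 and Klk13 lay below it on both.

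The arrays held RNA of cultured keratinocytes from the epidermis of newborn rats, and the study asked how their gene expression depends on TET enzymes, which oxidise methylated cytosine in DNA and whose activity vitamin C promotes. The siTet2/3 group was 1 culture transfected with siRNAs against Tet2 and Tet3, at 1 µM each. The control group was 1 culture that is titled NC but that the labels also call non-treated. Whether the control culture received another siRNA or transfection reagent is not stated. Both cultures received vitamin C for 12 h, from 24 h after transfection, in medium with 10% serum and 0.4 µg/mL hydrocortisone. With 1 array per group there is no replicate check and no test, so "higher" and "lower" compare 2 arrays, and this small number bounds how precise any value is. Whether a lower signal came from fewer cells of a type or from less RNA per cell cannot be told apart.

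In the outermost epidermis, human and mouse kallikreins cut the corneodesmosomes, the junctions that hold dead cells together, and so let those cells be shed. Human KLK5 can activate the precursors of KLK7 and KLK14, and the Kazal-type inhibitor LEKTI, the product of SPINK5, holds these proteases in check; people without LEKTI have Netherton syndrome, with a leaking, peeling skin. Cystatin M/E, the product of CST6, belongs to a separate inhibitor family that blocks cathepsins and legumain.

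Signals are log2 values as deposited, and each difference is siTet2/3 minus control. Probe sets differ in how brightly they bind, so values are compared between arrays for 1 gene and not between genes. The floor was 5.04 log2 units, the 95th percentile over 1206 chemoreceptor genes taken as a gauge of background, and 8103 named genes lay above it on at least 1 array. A gene was counted as higher or lower from a 1.5-fold difference. All 7 keratinocyte markers with a named probe set were above the floor, among them Krt14, with 18.70 log2 units on the siTet2/3 array and 18.54 on the control array. Of these 7 markers, 2 had differences above 0 and 5 below 0, with a median of -0.06 log2 units and 0 past 1.5-fold. Tet1, Tet2 and Tet3 had no named probe set, so the knockdown was not checked here. None of 10 fibroblast markers passed the floor, and Mitf of 6 melanocyte, Cd68 of 8 immune and Tek of 7 endothelial markers did. The log2 of the summed signal of the fibroblast list was 7.26 on the siTet2/3 array and 7.06 on the control array, and that of the immune list was 6.68 on the siTet2/3 array and 6.64 on the control array. For the melanocyte list it was 6.75 on the siTet2/3 array and 6.57 on the control array, and for the endothelial list 9.43 on the siTet2/3 array and 9.78 on the control array. Among 8 markers of glands and sebocytes 3 passed the floor and 1, the keratin gene Krt19, was higher by 1.62-fold. Of all named genes above the floor 8.63% were higher by 1.5-fold or more. The log2 of the summed signal of this list was 9.09 on the siTet2/3 array and 8.69 on the control array. Its brightest gene was Fasn, with 8.41 on the siTet2/3 array and 8.01 on the control array. The part of such cells in the results below was not tested.

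Among the members, the protease gene Klk6 was lower on the siTet2/3 array and the inhibitor gene Spink5 was higher. The other 4 members above the floor, Klk7, Klk8, Klk10 and Cst6, differed by less than 1.5-fold. So 1 of 6 members was higher and 1 of 6 lower, where 8.63% of all named genes above the floor were higher and 13.2% lower. The median difference of the 6 members was -0.32 log2 units and that of all named genes above the floor -0.05. At a limit of 3 robust SDs of genes of like signal, 0 members were counted in either direction, and at 2-fold Klk6 alone was.

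**Figure D1:**
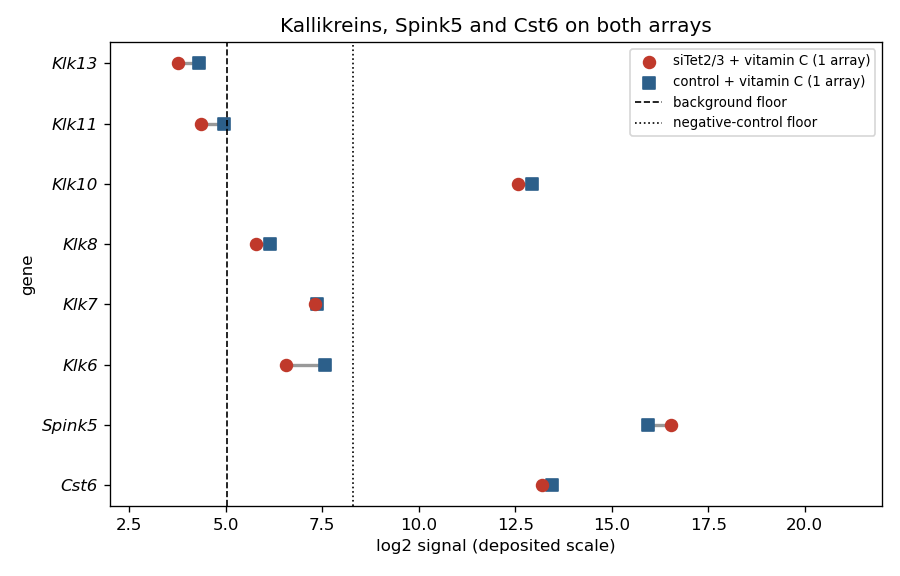
Log2 signals of the 8 members with a named probe set on the siTet2/3 array (circles) and the control array (squares); the dashed line is the background floor of 5.04 and the dotted line an alternative floor of 8.31 from negative-control probes. Spink5 is the member whose circle lies to the right of its square, and Klk6 has the widest gap.

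Klk6 encodes a trypsin-like protease, first studied in brain and also made in skin. It read 6.56 log2 units on the siTet2/3 array and 7.57 on the control array, a difference of -1.01 or 2.02-fold lower. The siTet2/3 culture was thus the low one, still above the floor. Differences of the 405 genes in the same band of mean signal had a robust SD of 0.48 log2 units, and 17 of those genes, Klk6 included, were as low or lower. In that band 7.41% of genes were at least 1.5-fold higher and 16.8% at least 1.5-fold lower. Klk6 lay on both arrays under 8.31 log2 units, the 95th percentile of 1153 negative-control probes.

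Klk7 encodes the chymotrypsin-like kallikrein of the stratum corneum, which in humans cleaves corneodesmosin and desmocollin 1. Its signal was 7.30 log2 units on the siTet2/3 array and 7.37 on the control array, a difference of -0.06 against a robust SD of 0.44 at that signal. The arrays thus lay close together for Klk7, and further apart for Klk6, its neighbour in the genome.

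Klk8 encodes neuropsin, a trypsin-like protease of hippocampus and upper epidermis. It read 5.77 log2 units on the siTet2/3 array and 6.14 on the control array, a difference of -0.37 where genes of that signal had a robust SD of 0.54. Klk10 read 12.57 log2 units on the siTet2/3 array and 12.94 on the control array, a difference of -0.36 with a robust SD of 0.32. Either difference amounts to 1.29-fold, short of the 1.5-fold limit. Of the 6 listed kallikreins with a named probe set, only Klk10 exceeded the negative-control level of 8.31.

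Klk11 and Klk13 encode further trypsin-like kallikreins of stratified epithelia. Klk11 read 4.37 log2 units on the siTet2/3 array and 4.95 on the control array, and Klk13 read 3.77 on the siTet2/3 array and 4.30 on the control array. Both values of each gene were under the floor, so their differences of -0.58 and -0.53 are not read as changes. Among the 6934 named genes not above the floor, 23.1% differed by 1.5-fold or more in either direction.

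Spink5 encodes LEKTI, a chain of Kazal domains cut into fragments that block kallikreins. It read 16.52 log2 units on the siTet2/3 array and 15.93 on the control array, a difference of 0.59 or 1.51-fold higher, just past the limit. The robust SD at that signal was 0.27, and 9 of the 406 genes in the band, Spink5 included, were as high or higher. In that band 2.46% of genes were at least 1.5-fold higher and 4.93% at least 1.5-fold lower. The identifier of the Spink5 probe set begins with TSUnmapped, a class of 234 gene probes in the table.

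Cst6 encodes cystatin M/E, whose loss in mice leaves a faulty skin barrier. It read 13.19 log2 units on the siTet2/3 array and 13.46 on the control array, a difference of -0.27 with a robust SD of 0.32. The serine protease inhibitor and the cystatin on the list thus differed in opposite directions, and only Spink5 passed the limit.

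**Figure D2:**
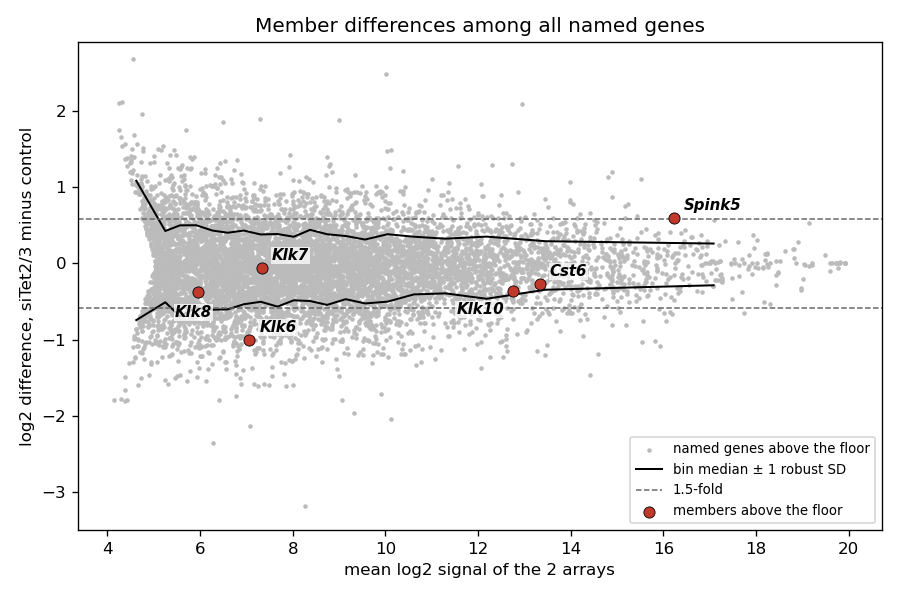
Log2 difference, siTet2/3 minus control, against the mean log2 signal for the 8103 named genes above the floor (grey), with the 6 members marked; solid lines give the median of each of 20 signal bands plus and minus 1 robust SD, dashed lines the 1.5-fold limit. Spink5 lies at 0.59 and Klk6 at -1.01, outside the dashed lines, and the other 4 members lie between them.

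Relative to Klk6, Klk7, Klk8 and Klk10, the listed kallikreins above the floor, the Spink5 signal was higher on the siTet2/3 array. The difference for Spink5 minus the difference for Klk6 was 1.61 log2 units, so the ratio of the inhibitor signal to the Klk6 signal was 3.04-fold higher in siTet2/3 cells than in control cells. The same ratio was 1.95-fold higher for Klk8, 1.94-fold for Klk10 and 1.57-fold for Klk7. These 4 ratios share the Spink5 probe set and restate the differences of single genes given above. Without replicate arrays they describe unequal differences between the arrays, and cannot show which gene changed or whether any did. How often other pairs of genes gave ratios as large was not tested.

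The promoters of the members past the limit, Klk6 and Spink5, and of Klk7 and Klk10, which were not past it, are printed because the knockdown targets enzymes that act on methylated CpG. DNA methylation itself was not measured here. Each sequence is the 250 bases upstream of the transcription start in RefSeq, build GRCr8, with CpG in capitals; all lie on the plus strand. Klk6 is at chr1:103415266-103415515, Klk7 at chr1:103403466-103403715, Klk10 at chr1:103371388-103371637 and Spink5 at chr18:36515097-36515346.
Klk6: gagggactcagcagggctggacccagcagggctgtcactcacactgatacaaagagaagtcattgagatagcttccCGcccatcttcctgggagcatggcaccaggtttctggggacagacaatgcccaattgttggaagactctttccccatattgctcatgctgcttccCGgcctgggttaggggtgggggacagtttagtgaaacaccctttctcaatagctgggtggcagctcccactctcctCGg
Klk7: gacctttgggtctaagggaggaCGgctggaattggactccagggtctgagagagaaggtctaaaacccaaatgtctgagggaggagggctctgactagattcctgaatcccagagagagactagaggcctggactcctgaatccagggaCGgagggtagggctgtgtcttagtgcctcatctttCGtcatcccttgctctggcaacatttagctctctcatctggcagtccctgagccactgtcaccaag
Klk10: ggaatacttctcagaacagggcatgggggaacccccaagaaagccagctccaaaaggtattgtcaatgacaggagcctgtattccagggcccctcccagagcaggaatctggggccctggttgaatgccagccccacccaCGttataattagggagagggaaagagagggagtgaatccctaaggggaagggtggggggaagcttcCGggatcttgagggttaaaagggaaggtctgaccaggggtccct
Spink5: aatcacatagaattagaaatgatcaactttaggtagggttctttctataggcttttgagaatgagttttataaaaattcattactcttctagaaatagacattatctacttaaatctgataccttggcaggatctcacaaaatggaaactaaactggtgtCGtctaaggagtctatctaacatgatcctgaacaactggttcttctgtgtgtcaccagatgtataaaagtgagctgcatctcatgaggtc

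Each of these windows held fewer CpG than the median promoter. Klk6 and Klk7 held 3 CpG each, Klk10 held 2 and Spink5 held 1. The 8 listed genes with an entry in the promoter table held 1 to 4, against a median of 5 over 33469 promoters of the same length. As few as the 1 CpG of Spink5 occurred in 18.1% of all promoters, and as few as the 3 of Klk6 in 37.4%. The G and C content was 35.2% for Spink5 and 55.6% for Klk6. On either strand, the motif TATAAA was present in the Spink5 window alone among the 8, and in 12.9% of all promoters. On the plus strand of the Spink5 window it started 29 and 182 bases before the start. Positions on the minus strand were not listed. The AP-1 motif TGANTCA was in 0 of the 8 windows and in 6.34% of all promoters. Klk8 and Cst6 were not matched in the promoter table.

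The kallikrein genes form a cluster on rat chromosome 1, in which RefSeq places 24 protein-coding kallikrein genes. A named probe set was present for 17 of them, of which 10 had differences below 0, with a median of -0.06 log2 units. From Klk13 to Klk6, in chromosomal order, there were 8 (Klk13, Klk12, Klk11, Klk10, Klk9, Klk8, Klk7 and Klk6), with differences from -1.01 for Klk6 to -0.06 for Klk7. This stretch was delimited after its values were seen, at the change of sign, so its shared direction is a description and no result. Above the floor were 5 of these 8 genes, and of those 5 only Klk6 passed the 1.5-fold limit. Differences below 0 were found for 55.0% of named genes above the floor and for 42.9% of those not above it. Klk9, which is not on the list, read 14.31 log2 units on the siTet2/3 array and 14.53 on the control array.

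Beyond Klk6 in the cluster, 2 of the 9 genes from Klk4 to Klk1b3 were above the floor. Klk1, the tissue kallikrein that releases kinins, read 5.21 log2 units on the siTet2/3 array and 4.63, below the floor, on the control array, at least 1.12-fold higher. Klk1c8 read 5.06 on the siTet2/3 array and 5.04 on the control array, at the floor. The Klk1-related genes are near copies of each other, and their probe sets may share signal. Of the flanking genes, Fv1 was lower, with 8.56 log2 units on the siTet2/3 array and 9.46 on the control array, while Zfp819 differed by 0.21 and Etfb by 0.26.

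**Figure D3:**
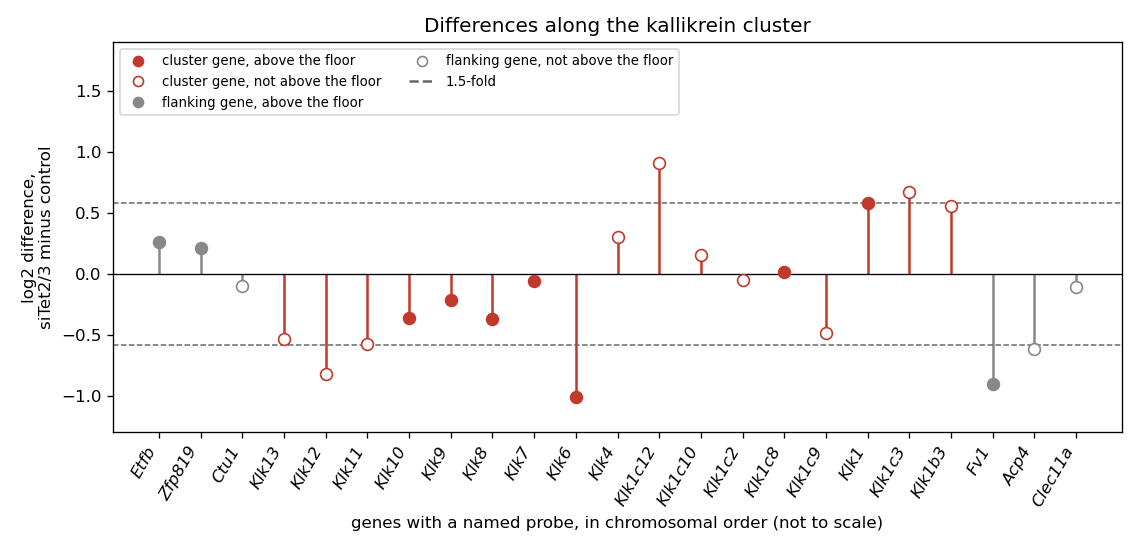
Log2 difference, siTet2/3 minus control, of the 17 kallikrein genes with a named probe set and 3 flanking genes on each side, in chromosomal order and not to distance; filled points lie above the floor on at least 1 array and open points do not. Points from Klk13 to Klk6 lie below 0, and those on the right are mostly open.

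Genes for proteases that activate kallikreins or act beside them at the cell surface were often lower on the siTet2/3 array. Of 9 such genes above the floor, among 15 with a named probe set, 6 were 1.5-fold lower or more and 0 higher, against the 13.2% lower and 8.63% higher among all named genes above the floor. Their median difference was -0.70 log2 units, which is the value of Tmprss4, a gene above the floor on the control array only. With values raised to the floor the median was -0.65, and over all 15 with no floor set it was -0.07. The list was drawn up with the value of Plau known. Plau, the urokinase gene, read 10.42 log2 units on the siTet2/3 array and 11.51 on the control array, 2.13-fold lower. Prss8, which encodes the membrane-anchored protease prostasin, read 8.51 on the siTet2/3 array and 9.52 on the control array, 2.02-fold lower. The tissue plasminogen activator gene Plat was 2.03-fold lower, at 6.86 against 7.88 log2 units in control cells, and the transmembrane protease gene Tmprss13 1.75-fold lower, at 6.93 against 7.73. Furin, which encodes a proprotein convertase, was 1.57-fold lower, with 11.18 log2 units on the siTet2/3 array and 11.83 on the control array.

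Tmprss4, the sixth of the lower genes, lay below the floor on the siTet2/3 array, at 4.38 against 5.08 in control cells, so its bound was 1.03-fold; with values raised to the floor, 5 of the 9 were lower, where 11.8% of all named genes above the floor were. St14, which encodes matriptase, the activator of prostasin in epidermis, read 10.74 log2 units on the siTet2/3 array and 10.79 on the control array. Tmprss11d read 8.81 on the siTet2/3 array and 8.26 on the control array, a difference of 0.54; it passed 1.5-fold only after centring or removal of a trend on signal. The meprin genes Mep1a and Mep1b were not above the floor.

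Among targets of kallikreins, F2rl1 stood out in size. It encodes PAR2, a receptor switched on when kallikreins or other trypsin-like proteases cut it, and it read 7.04 log2 units on the siTet2/3 array and 8.65 on the control array, a difference of -1.61 or 3.06-fold lower. The robust SD at that signal was 0.48. The siTet2/3 value of F2rl1 lay under the negative-control level of 8.31 log2 units and the control value above it, so the size of the difference is uncertain. Of 7 targets above the floor F2rl1 alone passed the limit, a count near the 13.2% lower among all named genes above the floor. The desmosomal cadherin genes Dsg3 and Dsc3 differed by 0.02 each, Dsc2 by -0.51, and Sbsn, which encodes suprabasin, by -0.35. Dsg1, Dsc1, Cdsn and Flg, which encode the main corneodesmosome proteins and filaggrin, had no named probe set and were not analysed here.

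Other inhibitor genes of serine proteases stayed within 1.5-fold. Of 10 such genes above the floor, 0 were higher or lower by that limit, with a median difference of -0.10 log2 units. The largest difference was that of Spink7, a Kazal-type inhibitor gene like Spink5, which read 8.26 log2 units on the siTet2/3 array and 8.71 on the control array. The matriptase and prostasin inhibitor genes Spint1 and Spint2 differed by 0.21 and -0.04, and the serpin gene Serpinb2 by 0.03.

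On the cysteine protease side, the cathepsin L gene Ctsl, a target of cystatin M/E, read 14.03 log2 units on the siTet2/3 array and 14.08 on the control array. Legumain, encoded by Lgmn, read 9.96 on the siTet2/3 array and 10.28 on the control array, a difference of -0.33. Among 7 such genes that passed the floor, 1 was higher and 1 lower: Ctsh by 1.70-fold, with 8.54 log2 units on the siTet2/3 array and 7.78 on the control array, and Ctsz by 1.93-fold, with 5.91 log2 units on the siTet2/3 array and 6.86 on the control array. These counts are near the shares of all named genes above the floor, 8.63% higher and 13.2% lower. The intracellular cystatin genes Csta and Cstb differed by -0.18 and -0.09, and Cst3, the secreted cystatin C gene, by -0.34. All 3 cystatin genes above the floor, other than Cst6, were thus short of 1.5-fold.

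**Figure D4:**
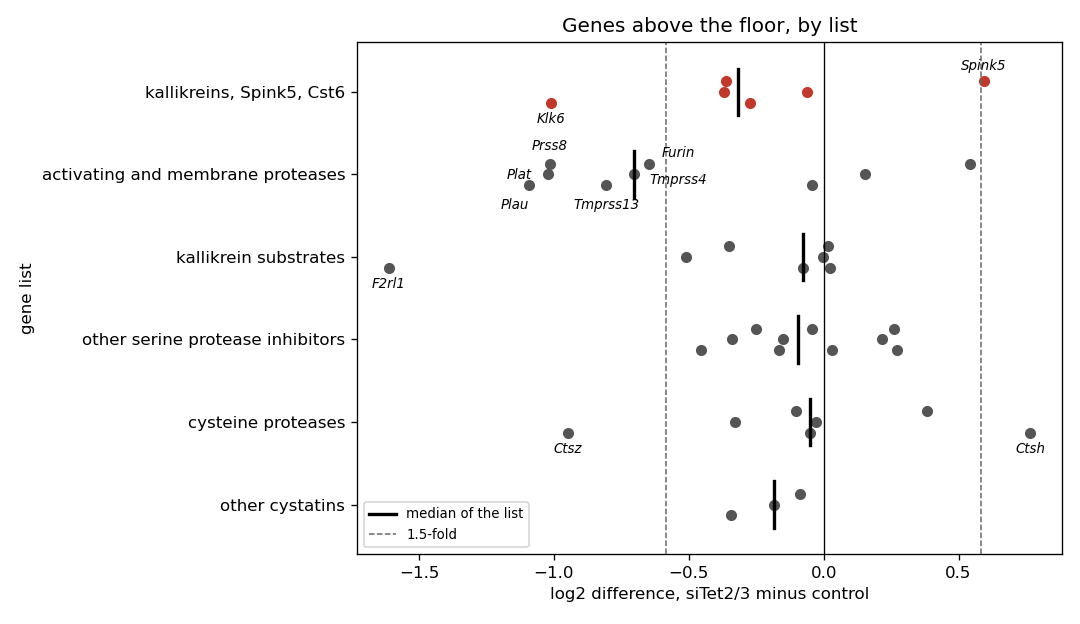
Log2 difference, siTet2/3 minus control, of each gene above the floor in 6 lists, with the list median as a black bar and the 1.5-fold limit as dashed lines; genes past the limit are named. Spink5 and Ctsh are the genes on the right of the limit, and 6 of the 9 activating and membrane proteases lie on the left of it.

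Kallikreins are made late in keratinocyte differentiation, so other genes of that stage are given beside them. Of 8 cornified envelope and granular layer genes that passed the floor, 3 were lower by 1.5-fold or more and 0 higher. Among all named genes above the floor 13.2% were lower and 8.63% higher. All 8 had differences below 0, as had 55.0% of named genes above the floor, and their median was -0.40 log2 units. Cnfn was 2.75-fold lower, Kprp 2.60-fold and Tgm1 1.51-fold, and Tgm1 fell short of the limit after centring. Both Kprp values lay under the negative-control level of 8.31 log2 units. Spink5, itself a granular layer gene, was higher, while Krt1 differed by -0.45 and Ivl by -0.15. The part of this stage in the member differences was not tested.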

How the data were processed

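Labelled cDNA of each culture was hybridised to 1 whole-transcript array, per the labels' protocols. The authors deposited log2 signals per probe set; the submitters' processing notes name RMA and the Transcriptome Analysis Console but no version or setting, and the genome build is not given in the sources used here. The sorted values of both columns differed by at most 0.151, so both had been scaled to almost equal distributions, and a difference in total RNA per cell cannot show. Of 23188 gene probes, 15049 had exactly 1 gene symbol and count as named. The other 8139, with no symbol or more than 1, were not used. Several named probes of a gene were averaged.

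No test was run: per gene, the control value was subtracted from the siTet2/3 value. Bands by mean signal were 20 equal groups of genes above the floor, and a robust SD is the scaled median absolute deviation in a band. Where 1 value was under the floor, a bound over the floor is given. Lists were matched by exact symbol. All members were named, and of each other list the genes past 1.5-fold, or the largest difference; other list genes were chosen after their values were seen. Members, lists and floor were chosen with earlier results of these data known. Alternatives were 3 floors, values raised to the floor, centring, removal of a loess trend (limma 3.58.1, span 0.3), the brightest probe, limits of 2-fold and of 3 robust SDs, and means. Counting was tested on simulated data with less noise than the differences here. That test checks the counting and gives no error rate for these data. Promoters came from RefSeq, build GRCr8.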

Additional observations from a re-analysis of the deposited data

How the results depend on the processing

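Klk6 remained the lower member and Spink5 the higher member under no floor, a floor 1 log2 unit higher, values raised to the floor, the brightest probe, centring and trend removal. Of these, only centring and trend removal could alter either call. Both genes had 1 probe set and lay above those floors on both arrays, so the other settings returned the same differences. At a 2-fold limit 0 members were higher and Klk6 was lower; at 3 local robust SDs 0 were higher and 0 lower; with the floor from negative-control probes (8.31 log2 units) 3 members remained, Spink5 higher and 0 lower, by construction, since Klk6 was then not counted. The member median ran from -0.37 with no floor to -0.25 with the mean. Over all named genes, 699 higher and 1070 lower became 147 and 247 at 2-fold, 23 and 50 at 3 robust SDs, 248 and 453 with the negative-control floor, 1684 and 1690 with no floor, and 845 and 899 with centring. All 24 recomputed differences of single members moved by less than the robust SD at their signal. The members recomputed had 1 probe set each and lay above the floor on both arrays. Raising to the floor and the brightest probe therefore could not move them, and centring shifted all genes alike. Their stability is thus no support for the differences. Of 144 recomputed counts of the other lists 24 moved, either by over 1.5 times or to or from 0. For the activating and membrane proteases 3 were lower at 2-fold, 3 with the negative-control floor and 1 at 3 robust SDs. The median of these proteases was -0.07 with no floor. No paired analysis was possible because each group had 1 array, and for the same reason no array could be left out. Dim probe sets limit what can be said of Klk6, Klk7, Klk8, Klk11 and Klk13. The same holds for Plat, Tmprss13 and Tmprss4 among the activating and membrane proteases.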

Other observations

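A further list held receptor and transcription factor genes taken as possible regulators of kallikrein expression. Whether they act on kallikrein genes in these cells was not tested. Among the 13 above the floor, 1 was at least 1.5-fold lower and 0 were higher, where 13.2% of all named genes above the floor were lower and 8.63% higher. The median difference of the 13 was -0.06 log2 units, and that of all named genes above the floor -0.05. The lower one was Ovol1, a repressor gene of differentiating epidermis, which read 4.72 log2 units on the siTet2/3 array, below the floor, and 5.94 on the control array, at least 1.86-fold lower. Both Ovol1 values were under the negative-control level of 8.31 log2 units. With a floor 1 log2 unit higher, or at a limit of 3 robust SDs, 0 genes of this list were lower. Stat6, which carries interleukin-4 and interleukin-13 signals, read 11.30 on the siTet2/3 array and 11.78 on the control array. The aryl hydrocarbon receptor gene Ahr read 6.46 on the siTet2/3 array and 5.89 on the control array, a difference of 0.57, short of 1.5-fold; it passed that limit after centring or removal of the trend. The vitamin D receptor gene Vdr differed by -0.06, the glucocorticoid receptor gene Nr3c1 by -0.17 and the differentiation factor gene Klf4 by -0.06.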
